A study of Mus musculus with 6 samples.

Results

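The replication-dependent histone genes were taken as every protein-coding gene of the GENCODE vM21 basic annotation whose symbol begins with Hist1h, Hist2h, Hist3h or Hist4h, a choice that used no peak. This gave 67 of 21911 genes. The members fell into 4 clusters by symbol: Hist1 with 54 members on chromosome 13, Hist2 with 10 on chromosome 3, Hist3 with 2 on chromosome 11 and Hist4 with 1 on chromosome 6. By the protein they encode, 6 were linker histone H1 genes, 18 H2A, 18 H2B, 12 H3 and 13 H4 genes.

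The lists of peaks came from chromatin immunoprecipitation of H3K4me3, histone H3 trimethylated at lysine 4, a mark of active and poised promoters. The cells were conditionally immortalised mouse striatal progenitors (strain label C57BL/6) kept at 33 °C, and every group was held in serum-free medium for 24 h. Q7SST was the wild type STHdhQ7 line with vehicle. Q111SST was the STHdhQ111 line, which is homozygous for a knock-in of an expanded CAG tract in the huntingtin gene, with vehicle. The remaining 4 groups were the same STHdhQ111 line with 10 uM of cyproheptadine (an antihistamine and serotonin antagonist), loxapine (an antipsychotic), DKI (a diacylglycerol kinase inhibitor) or meclizine (an antihistamine). Each genotype was 1 cell line and each group had 1 peak list, so genotype cannot be told apart from the line, no value carried a replicate error, and no difference between lists was tested. The study's design text states that treatments were made in triplicate, and whether the lists pooled them is not given in the sources used here. The lists held between 30758 and 45564 peaks, and the number of reads behind them is unknown. As a check of the cell label, peaks lay within 1 kb of a start of 2 to 4 of 4 neural progenitor marker genes and 3 to 7 of 8 striatal lineage marker genes per list. Over all protein-coding genes, 54.1% to 58.6% had such a peak. The 5 mutant lists had 3 or 4 of the 8 striatal genes, so these counts by themselves do not bear out the label. Isl1 had no peak in any list, and Gsx2, Dlx1 and Bcl11b had one in Q7SST only of the 6 lists.

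Replication-dependent histone genes supply the proteins that package newly copied DNA and are expressed mainly in S phase. They are short, mostly lack introns, and lie close together, often as H2A and H2B genes that point away from each other. Their mRNAs end in a conserved stem-loop bound by SLBP in place of a poly(A) tail. Their transcription is organised by NPAT at the histone locus body, with the factor HINFP acting on H4 genes and OCT1, encoded by Pou2f1, acting on H2B genes. Here 62 of the 67 members had 1 exon, and gene length ranged from 312 to 37455 bp with a median of 539 bp. The start of another member lay within 2 kb of 51 members.

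The stem-loop was found in the reference genome within 100 bases after the stop codon of 65 of 67 members. The form searched was 6 paired bases that begin with GG, 4 loop bases and 6 paired bases. The same pattern followed 139 of all 21911 protein-coding genes, members included, 0.634%. It began 22 to 59 bases after the stop codon, with a median of 31. The forms below are printed on the gene strand with the stem in capitals, since they are the feature that the members share and the rule did not use.

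Form 1, in 41 members of classes H1, H2A, H2B and H3: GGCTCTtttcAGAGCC
Form 2, in 9 members: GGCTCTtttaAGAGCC
Form 3, in 8 members, all H4: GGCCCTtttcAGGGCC
Form 4, in Hist1h4b and Hist1h4j: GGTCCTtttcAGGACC

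The example of form 1 after Hist3h2ba lay at chr11:58949349-58949364 on the plus strand of mm10. A further 4 forms accounted for the remaining 5 members with a stem-loop. The searched letters were not found after Hist1h2an and Hist2h2be. Of 11 histone variant genes outside the clusters, H2afx, which encodes the H2A.X variant of the DNA damage response, was the only gene with a match.

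Promoters from 250 bases before to 50 after the start were available in RefSeq (GRCm38.p6) for 62 members. The printed set holds the members with the highest and the lowest median peak strength, the divergent pair with the nearest starts, a member with no peak, and Hist1h1d, whose annotated starts differ. Each runs 5′ to 3′ on the strand of the gene. Capitals mark the TATA box TATAAA, the CCAAT box, the octamer ATTTGCAT and the H4 element GGTCCG, each in its own letters or as its reverse complement where it reads on the other strand.

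Hist4h4 (chr6:136804382-136804681, minus strand), highest median strength: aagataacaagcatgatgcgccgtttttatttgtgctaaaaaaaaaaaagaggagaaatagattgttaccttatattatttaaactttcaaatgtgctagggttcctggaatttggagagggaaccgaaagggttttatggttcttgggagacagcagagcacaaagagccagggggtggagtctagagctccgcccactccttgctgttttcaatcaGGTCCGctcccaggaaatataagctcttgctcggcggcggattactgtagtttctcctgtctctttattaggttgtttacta
Hist1h4b (chr13:23756687-23756986, plus strand), lowest median strength: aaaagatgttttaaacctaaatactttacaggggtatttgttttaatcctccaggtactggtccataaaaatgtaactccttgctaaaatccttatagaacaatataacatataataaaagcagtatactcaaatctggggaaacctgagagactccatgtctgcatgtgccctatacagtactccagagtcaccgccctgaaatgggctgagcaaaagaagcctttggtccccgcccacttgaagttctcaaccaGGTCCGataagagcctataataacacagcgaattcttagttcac
Hist1h2ae (chr13:23571171-23571470, minus strand), divergent with Hist1h2bg: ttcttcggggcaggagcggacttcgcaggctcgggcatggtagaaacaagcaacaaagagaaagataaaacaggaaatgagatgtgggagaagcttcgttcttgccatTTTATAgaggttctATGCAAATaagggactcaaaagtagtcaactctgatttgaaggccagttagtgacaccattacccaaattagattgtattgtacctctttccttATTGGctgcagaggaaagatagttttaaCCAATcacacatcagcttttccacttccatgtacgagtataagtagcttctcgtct
Hist1h1t (chr13:23695561-23695860, plus strand), no peak: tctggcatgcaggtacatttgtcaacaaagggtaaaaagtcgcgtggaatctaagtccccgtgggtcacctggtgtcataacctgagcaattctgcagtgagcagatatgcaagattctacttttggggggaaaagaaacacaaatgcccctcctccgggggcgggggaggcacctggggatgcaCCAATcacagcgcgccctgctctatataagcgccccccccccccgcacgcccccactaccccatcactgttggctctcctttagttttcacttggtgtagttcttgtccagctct
Hist1h1d (chr13:23554782-23555081, plus strand), RefSeq start: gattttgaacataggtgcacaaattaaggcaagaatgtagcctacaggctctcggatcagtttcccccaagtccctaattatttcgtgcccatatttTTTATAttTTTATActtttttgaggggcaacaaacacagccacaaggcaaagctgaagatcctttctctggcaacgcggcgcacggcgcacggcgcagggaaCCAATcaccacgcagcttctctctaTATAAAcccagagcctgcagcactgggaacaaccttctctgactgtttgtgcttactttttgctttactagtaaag

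The H4 promoters differed in letters from those of the other classes. GGTCCG, the core of the element known from H4 promoters, was in 11 of 12 H4 promoters, in 1 of 10 H3 and 1 of 16 H2B promoters, in none of the H1 and H2A promoters, and in 10.6% of 17492 protein-coding promoters. CCAAT was in 3 of 12 H4 promoters (25%) and in all 6 H1, 18 H2A, 16 H2B and 10 H3 promoters, against 39.0% of all promoters. The octamer ATTTGCAT, the letters bound by OCT1, was in 7 of 18 H2A and 6 of 16 H2B promoters, in none of the other classes, and in 1.71% of all promoters. Both strands were searched and the windows of divergent pairs overlap, so that 1 octamer can count in both classes. Hist1h2ae with Hist1h2bg, Hist1h2ah with Hist1h2bk and Hist1h2aa with Hist1h2ba were counted in both. TATAAA was in 35 of 62 member promoters (56.5%) against 13.3% of all promoters. These letters were counted anywhere in the window and on either strand. Only a minority of the 35 held them on the gene strand close before the start. In the Hist1h2ae window above, the octamer and TATAAA were read on the other strand, 128 and 142 bases before the Hist1h2ae start, in the direction of Hist1h2bg. The octamer and GGTCCG were added to the search after the sequences were seen.

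H3K4me3 peaks lay within 1 kb of an annotated start, here called marked, for 65 of 67 members in every list but DKI, where 63 were marked. Over all protein-coding genes the marked share was 58.6% in Q7SST, 57.1% in Q111SST, 54.1% under cyproheptadine, 56.9% under loxapine, 54.6% under DKI and 57.3% under meclizine. Of 2318 genes no longer than 3 kb, between 24.2% and 27.9% were marked, so that the members' share stood above that of other short genes too. All 12 H3 and all 13 H4 genes were marked in each of the 6 lists. The H2A and H2B classes had 18 of 18 marked in 5 lists and 17 of 18 under DKI. In H1, 4 of 6 were marked in each list. The other protein-coding genes with a start inside a cluster block, Hfe and Trim17, were marked in all 6 lists.

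The promoters of the members held fewer GC bases than those of other genes. Median GC content was 45.3% over the 62 member promoters with sequence, 57% over 16417 other genes and 61.3% over the 9730 of those that were marked in Q111SST. Among promoters below 45% GC, 27 of 27 members were marked in Q111SST, against 366 of 2767 other genes, 13.2%. Among promoters with fewer than 9 CpG dinucleotides, 19 of 19 members were marked and 19.6% of 6376 other genes. The part of base composition in the marking was not tested.

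**Figure D1:**
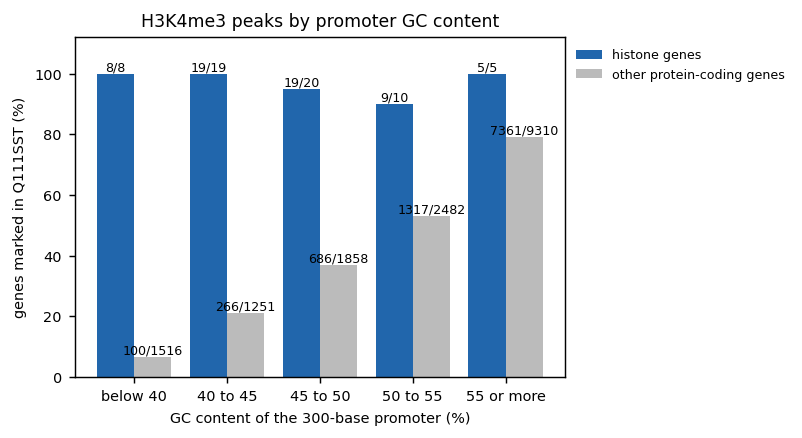
Bars give the percent of genes marked in Q111SST (y axis, from 0) by GC content of the 300-base RefSeq promoter in percent (x axis), for histone genes (blue) and other protein-coding genes (grey), with marked and total genes above each bar. The share of other genes went from 6.60% below 40% GC to 79.1% at 55% or more, while 8 of 8 and 5 of 5 histone genes were marked at these ends.

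Peak strength was expressed as the percentile of a peak's score among all peaks of its list, since the scale of the deposited score is not given in the sources used here. The strongest peak of each marked member had a median percentile of 66.4 in Q7SST, 69.8 in Q111SST, 70.9 under cyproheptadine, 70.4 under loxapine, 70.4 under DKI and 67.9 under meclizine. The medians over all marked genes were 80.4, 82.6, 79.5, 83.0, 75.8 and 80.4 in the same order. The members were thus marked more often than genes in general, with a lower median rank than all marked genes in each of the 6 lists. For the members in which at least 90% of the 50-base windows around the start occurred once in the genome, the median under DKI was 77.9, above the 75.8 of all marked genes. Hist4h4 was the highest member in 5 lists and Hist1h4j under loxapine. The lowest member was Hist1h4d in Q7SST and under DKI, Hist1h2bm in Q111SST, Hist3h2ba under cyproheptadine, and Hist1h4b under loxapine and meclizine.

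**Figure D2:**
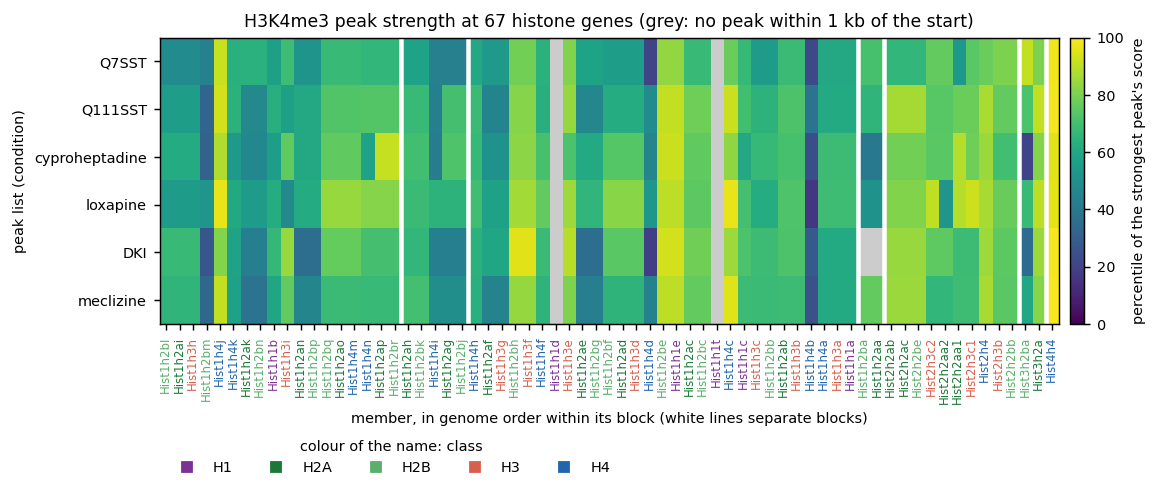
Colour gives the percentile (0 to 100) of the strongest peak within 1 kb of a start, for each of the 67 members (x axis, genome order within blocks, name coloured by class) in each peak list (y axis); grey is no peak. Hist4h4 at the right edge lies between 95.5 and 98.9, Hist1h4b between 15.9 and 38.1, and the 2 columns in grey throughout are Hist1h1d and Hist1h1t.

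Peaks at the members were wide, and wide peaks were a larger share of their peaks than over all genes. Median width was 2260 bp in Q7SST, 2370 in Q111SST, 1906 under cyproheptadine, 2101 under loxapine, 1959 under DKI and 2234 under meclizine, against 1682, 1767, 1515, 1689, 1433 and 1643 bp over the peaks of all marked genes. Of the members' strongest peaks, 23.7% in Q7SST, 23.7% in Q111SST, 10% under cyproheptadine, 25.6% under loxapine, 13.9% under DKI and 21.6% under meclizine were 3 kb or wider. Over all marked genes these shares were between 1.87% and 5.90%. A peak covered the whole gene for 47.7% to 63.1% of marked members and for 9.65% to 13.2% of marked genes no longer than 3 kb. The members had a median length of 539 bp, and these sets were not matched in length. The part of gene length in this difference was not tested.

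Neighbouring members shared peaks. Between 37 and 45 distinct peaks lay near the 63 to 65 marked members of a list, and 69.2% to 75.4% of marked members had another member under the same strongest peak, against 19.2% to 20.2% of all marked genes. Of 60 pairs of adjacent members, 26 had a common peak within 1 kb of both starts in all 6 lists, and their starts lay at most 1582 bp apart. Another 32 pairs had none in any list. In 4 of these, 1 member was Hist1h1d or Hist1h1t, which had no peak to share, and in the other 28, with both members marked in all 6 lists, the starts lay at least 2745 bp apart. The 2 remaining pairs, Hist1h2ba with Hist1h2aa and Hist2h2aa1 with Hist2h3c1, had a common peak in 5 lists each. Since 1 kb windows around close starts overlap, the same count was made for peaks that covered both starts, which gave 18 pairs in Q7SST, 23 in Q111SST, 13 under cyproheptadine, 20 under loxapine, 21 under DKI and 25 under meclizine, against 27 or 28 with the window. Of 13 divergent pairs, 176 to 660 bp apart, 12 had a common peak in all 6 lists.

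**Figure D3:**
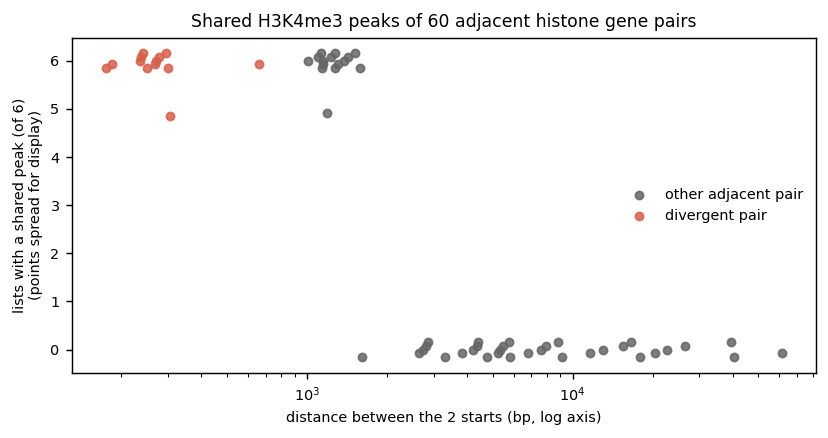
Each point is 1 of 60 pairs of adjacent members, by the distance between their starts (x axis, bp, log axis) and the number of lists, of 6, with a peak within 1 kb of both starts (y axis, points spread for display). Pairs up to 1582 bp apart sit at 5 or 6 lists and pairs of marked members from 2745 bp at 0, as do the 4 pairs with the unmarked Hist1h1d or Hist1h1t, which include those at 1614 and 2640 bp, and the 13 divergent pairs (red) are the nearest.

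The peaks lay along the gene groups of the clusters, and how much of a block they covered differed between blocks. The share is of the block with 1 kb added at each end. In the first block of Hist1, 18 members over 117.6 kb, 17.2% to 23.0% of the block was under peaks, and the block held 12 to 14 peaks, of which 10 to 12 lay near members. In Hist2, with 10 members over 49.9 kb, 26.2% to 30.8% was under peaks. In the second block of Hist1, where 5 members lie within 7.65 kb, 48.7% to 62.7% was under peaks. The largest block of Hist1, with 29 members over 232.6 kb, had 16 to 19 peaks near members and 6 to 9 elsewhere.

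**Figure D4:**
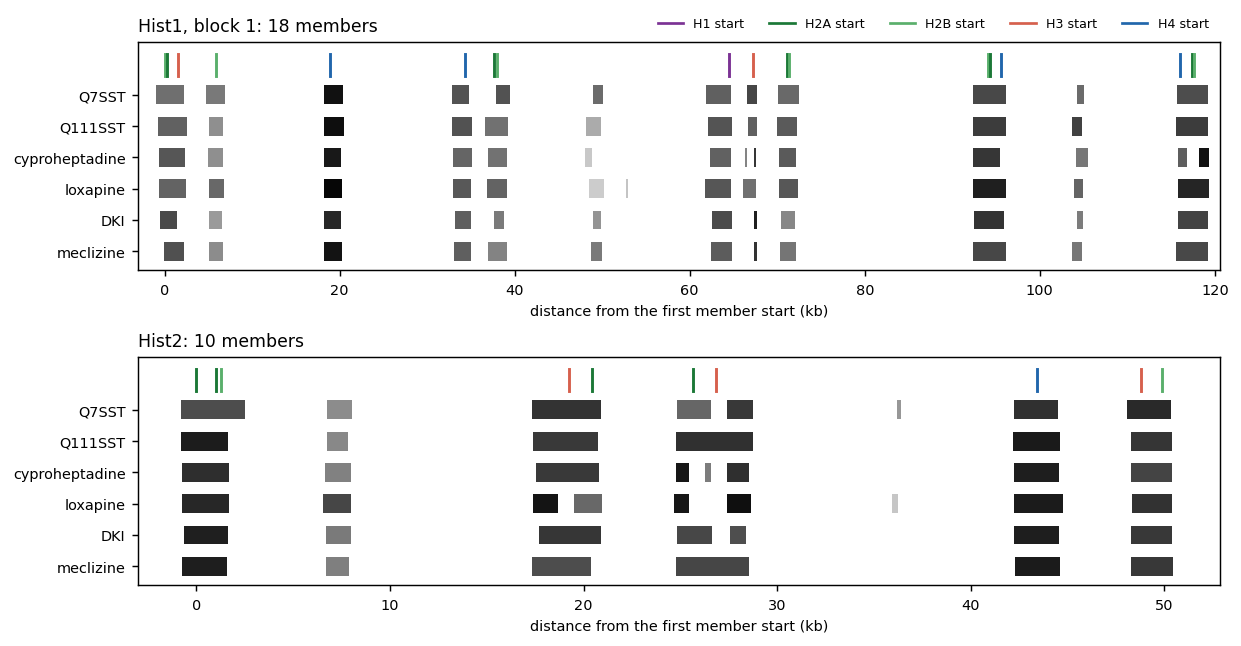
Bars are peaks of each list (y axis; darker is a higher percentile) by distance in kb from the first member start (x axis) in the first Hist1 block, 18 members, and in Hist2, 10 members; coloured ticks are member starts by class. Peaks recur at the same gene groups in the 6 lists, and the peak over Hist2h2aa1 and Hist2h3c1 near 26 kb is undivided in Q111SST and meclizine only.

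The linker histone H1 genes encode proteins that bind DNA between nucleosomes. Hist1h1e was the strongest of them, with scores of 124 in Q7SST, 142 in Q111SST, 118 under cyproheptadine, 138 under loxapine, 134 under DKI and 159 under meclizine, and percentiles of 83.8 to 93.2. Hist1h1c lay between percentiles 60.2 and 71.5, Hist1h1b between 56.0 and 66.8, and Hist1h1a, which shared a peak with Hist1h4a and Hist1h3a, between 61.0 and 69.0 in the mutant lists and at 60.2 in Q7SST. Hist1h1e was highest and Hist1h1c above Hist1h1b in all 6 lists, and the place of Hist1h1a among the others varied.

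Hist1h1d and Hist1h1t were the members without a peak within 1 kb in any list. For Hist1h1d this depended on the annotation. Its GENCODE start, chr13:23553262, lies 1828 bp before its coding sequence, and the nearest peak to that start was 1147 to 1207 bp away. Around the coding start each list had a peak, 0 to 69 bp away, 1663 to 2107 bp wide, with scores of 107 in Q7SST, 90 in Q111SST, 108 under cyproheptadine, 109 under loxapine, 114 under DKI and 123 under meclizine. The RefSeq start of Hist1h1d was thereby marked in all 6 lists. Hist1h1t, the testis H1 expressed in spermatocytes, had no peak within 1 kb, and 100% of its 50-base windows occurred once in the genome. The nearest peak was 1373 to 1506 bp from its start and was the peak of Hist1h4c.

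The other testis members, Hist1h2ba and Hist1h2aa, encode the H2B and H2A forms of male germ cells and lie head to head, 306 bp apart. They shared 1 narrow peak, 266 to 336 bp wide, that covered neither start and lay within 1 kb of both. Its score was 88 in Q7SST, 67 in Q111SST, 32 under cyproheptadine, 47 under loxapine and 109 under meclizine. With DKI no peak was listed there, and the nearest was 84594 bp from the Hist1h2ba start. Its position, chr13:23933740-23934028 in Q111SST, was inside the coding sequence of Hist1h2ba for most of its length. Every other H2A and H2B gene was marked in all 6 lists.

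H2A and H2B genes encode the partners of the histone dimer. Their class medians were between percentiles 65.2 and 73.2, and the ranges of the members of both classes overlapped in each list. The widest Q111SST peak near a member, 3972 bp with a score of 96, covered Hist2h2aa1 and the H3 gene Hist2h3c1. At these genes the same stretch was divided into several peaks in Q7SST and under cyproheptadine, loxapine and DKI, with the strongest at Hist2h2aa1 scoring 54, 108, 132 and 71. The paired copy, Hist2h2aa2 with Hist2h3c2, had 1 strongest peak in common, with scores of 101 in Q7SST, 86 in Q111SST, 74 under cyproheptadine, 83 under DKI and 83 under meclizine, where it ended short of the Hist2h2aa2 start, while under loxapine the 2 genes had separate strongest peaks that scored 48 and 139. Of the coding sequences of these 4 genes, 0% of 50-base windows occurred once in the genome.

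In Hist2 the divergent pair Hist2h2ac and Hist2h2be, with Hist2h2ab beside it, had 1 peak with scores of 77 in Q7SST, 125 in Q111SST, 82 under cyproheptadine, 104 under loxapine, 103 under DKI and 138 under meclizine. The wild type list was the lowest of the 6 in score and in percentile (66.4 against 78.6 to 86.5). Hist2h3b and Hist2h2bb shared a peak with percentiles of 69.7 to 80.4, and Hist2h4 stood alone with percentiles of 77.2 to 87.3.

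The values of the Hist3 genes differed most among lists at one of them. Hist3h2ba, an H2B gene, scored 151 in Q7SST and 80 in Q111SST, 19 under cyproheptadine, 71 under loxapine, 32 under DKI and 70 under meclizine. Its peak was 1122 bp wide in Q7SST and 256 to 438 bp in the 5 mutant lists, so that the wild type list was apart from all mutant lists in both measures. Its percentile ran from 20.2 to 90.9, a range of 70.7 points, which was the largest of the 63 members marked in every list. Hist3h2a, an H2A gene 5765 bp away, kept percentiles of 80.4 to 90.7 and widths of 1972 to 2366 bp, and its lowest percentile was in Q7SST.

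H3 and H4 genes encode the tetramer at the centre of the nucleosome. By median percentile over the lists, H4 held the extremes. Hist4h4, the sole member on chromosome 6, scored 204 in Q7SST, 203 in Q111SST, 136 under cyproheptadine, 174 under loxapine, 190 under DKI and 248 under meclizine. Its percentiles were 95.5 to 98.9, and their range, 3.42 points, was the narrowest of the 63. Hist1h4j lay between percentiles 81.3 and 96.8 and Hist1h4c between 77.2 and 96.6. Hist1h4b scored 27 in Q7SST, 32 in Q111SST, 21 under cyproheptadine, 19 under loxapine, 27 under DKI and 29 under meclizine, with percentiles of 15.9 to 38.1. Hist1h4d scored 26, 41, 36, 49, 21 and 46 in the same order, and its lowest percentiles, 20.4 and 18.5, were in Q7SST and DKI. The strongest and the weakest marked member by median thus both encode H4, and both promoters printed above held GGTCCG and no CCAAT.

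Of the other weak members, the H2B gene Hist1h2bm lay between percentiles 26.6 and 52.0, the H4 gene Hist1h4i between 41.8 and 64.5, and Hist1h2ak with Hist1h2bn between 38.1 and 64.0. Of the strong members, Hist1h2bh and Hist1h3f shared a peak with percentiles of 78.7 in Q7SST, 81.7 in Q111SST, 82.7 under cyproheptadine, 86.3 under loxapine, 95.7 under DKI and 84.1 under meclizine. Hist1h2be shared the peak of Hist1h1e at its annotated start, although its coding sequence lies at chr13:23585579-23585956, elsewhere in the block. The H3 and H2A genes Hist1h3g and Hist1h2af had a peak of 3500 bp in Q111SST with a score of 38, one of the widest and weakest near a member.

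Against Q111SST, no member was gained in any list and 2 were lost, the testis pair under DKI. Hist1h1d and Hist1h1t were the only members that could have been gained. Over all genes unmarked in Q111SST the gained share was 8.19% in Q7SST, 0.66% under cyproheptadine, 2.17% under loxapine, 0.596% under DKI and 2.21% under meclizine. The lost share over all marked genes was 3.58%, 5.72%, 2.08%, 4.93% and 1.33% in the same order. The members' losses were 0 of 65 in 4 lists and 2 of 65, under 1 peak, under DKI, the shortest list. These counts depended on the window. The share of marked members with a start under a peak was 76.9% in Q7SST, 87.7% in Q111SST and 64.6% under cyproheptadine. It was 80% under loxapine, 85.7% under DKI and 89.2% under meclizine. Over all marked genes the shares were 85.7%, 85.5%, 78%, 80.15%, 81.6% and 87.0% in that order. Where a peak had to cover the start, which held for 57 members in Q111SST, 9 members were lost in Q7SST (5.93% of all genes so covered), 15 under cyproheptadine (14.4%), 7 under loxapine (8.97%), 6 under DKI (10.7%) and 2 under meclizine (2.92%). Gains under that rule were 2 members in Q7SST (8.4% of all genes not so covered), 0 under cyproheptadine (0.892%), 2 under loxapine (2.22%), 3 under DKI (1.77%) and 3 under meclizine (4.82%). All 5 comparisons share the Q111SST list.

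A change of 10 percentile points or more was counted for members marked in both lists. Higher percentiles than in Q111SST were found for 7 of 65 members in Q7SST (8.68% of all genes), 9 of 65 under cyproheptadine (3.46%), 16 of 65 under loxapine (6.81%), 11 of 63 under DKI (3.51%) and 3 of 65 under meclizine (4.07%). Lower percentiles were found for 13 members in Q7SST (12.9% of all genes), 6 under cyproheptadine (26.1%), 4 under loxapine (9.59%), 10 under DKI (39.1%) and 6 under meclizine (10.1%). Counted as pairs of peaks, because members share them, 5 were higher and 9 lower by this size of 39 in Q7SST, 5 and 5 of 40 under cyproheptadine, 10 and 3 of 40 under loxapine, 5 and 7 of 37 under DKI and 2 and 4 of 38 under meclizine. The median change over members was -5.09 points in Q7SST, 0.36 under cyproheptadine, 1.16 under loxapine, -0.016 under DKI and -1.53 under meclizine, against -1.05, -3.80, -0.39, -6.68 and -1.56 over all genes. Percentiles depend on the length of a list, and the DKI list was the shortest. With each list limited to its 30758 strongest peaks, an alternative chosen after the data were seen, 24 members were higher and 5 lower under cyproheptadine (9.98% and 17.3% of all genes), and 27 higher and 6 lower under DKI (11.1% and 21.7%). The counts were 14 and 11 of 64 under loxapine (6.64% and 22.5% of genes), 9 and 13 of 65 in Q7SST (12% and 14.4%) and 7 and 7 of 65 under meclizine (6.49% and 11.5%). The median change over members then was 8.53 points under cyproheptadine, 8.88 under DKI, -2.45 under loxapine, -4.58 in Q7SST and -0.96 under meclizine, against -1.10, -1.86, -2.63, -0.58 and -1.15 over all genes. Between the full and the limited lists the members' median turned sign under loxapine and DKI, and under cyproheptadine it changed in size.

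**Figure D5:**
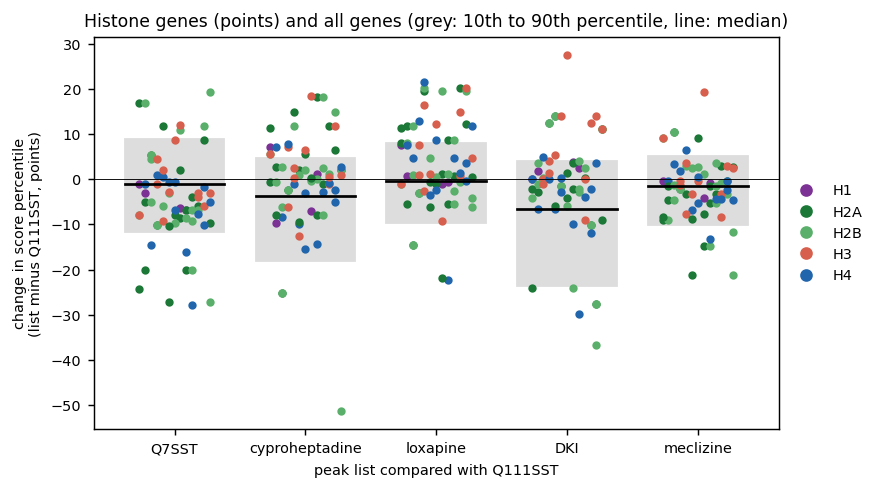
Points are members marked in both lists, coloured by class, by the change in score percentile against Q111SST (y axis, points) in each of 5 lists (x axis); the grey box spans the 10th to 90th percentile of all genes marked in both lists and the black line is their median. With cyproheptadine and DKI the gene medians lie at -3.80 and -6.68 while the member medians are 0.36 and -0.016 (8.53 and 8.88 with lists of equal size, not drawn), and the lowest point, at -51.4, is Hist3h2ba under cyproheptadine.

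The members at the ends of the change in each list were Hist3h2ba and Hist1h4d in Q7SST, Hist1h3i and Hist3h2ba under cyproheptadine and DKI, Hist1h4i and Hist1h4b under loxapine, and Hist1h3i with Hist1h2ag and Hist1h2bj under meclizine, where Hist1h3i, Hist1h2ag and Hist1h2bj were named after their values were seen. The percentile of Hist1h3i was 69.0 in Q7SST, 56.9 in Q111SST, 75.4 under cyproheptadine, 47.7 under loxapine, 84.4 under DKI and 76.2 under meclizine. Its peak was 1206, 950 and 1528 bp wide in Q7SST, Q111SST and under loxapine, where it covered the start, and 269, 314 and 310 bp in the other 3 lists, where it did not. The scores were 83, 52 and 43 in the first 3 lists and 76, 103 and 109 in the second. Hist1h2ag shared 1 peak with Hist1h4i and Hist1h2bj, 3717 to 4103 bp wide, in Q7SST and under loxapine, DKI and meclizine. In Q111SST and under cyproheptadine its strongest peak, 742 and 574 bp wide, was shared with Hist1h2bj and was not the strongest peak of Hist1h4i.

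Divided peaks were found at several divergent pairs. Starts lying between 2 peaks, with neither covering them, numbered 6 of 65 marked members in Q7SST, 2 in Q111SST, 12 under cyproheptadine, 3 under loxapine, 2 of 63 under DKI and 0 under meclizine, against 3.41% to 6.55% of all genes with a peak within 1 kb of the 5′ end of the gene record, from which these counts were taken. Hist1h2ae and Hist1h2bg were among them in Q7SST, under cyproheptadine and under loxapine, where 45.9%, 52.2% and 49.1% of 50-base windows in the gap occurred once in the genome. The Hist2h3c1 start was in such a gap in Q7SST, under cyproheptadine and under DKI, with 6.60%, 6.54% and 11.9% unique windows. The part of repeated sequence in these gaps was not tested.

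Many members share long stretches of sequence with other members, so that a read of 50 bases may match several copies, and how such reads were handled is not given in the sources used here. Between members of equal coding length the median identity was 93.9% in H4, 96.7% in H2A, 97.2% in H3 and 97.4% in H2B, with a lowest value of 77.7% in H2A. Others were distinct: Hist1h1a and Hist1h1b had 100% unique windows around the start and in the coding sequence, and Hist4h4 had 100% in its coding sequence. Within 1 kb of the starts, a median of 80.7% of 50-base windows of members occurred once in the genome, and 49 of 67 members (73.1%) had under 90%, against 13.3% of all genes. Within their coding sequences the median was 25%. The lowest class median was 14.6% for H3 and the highest 89.0% for H1. Identical coding sequences were shared by Hist1h2ao with Hist1h2ap, Hist1h2bq with Hist1h2br, Hist1h4m with Hist1h4n, Hist2h2aa1 with Hist2h2aa2 and Hist2h3c1 with Hist2h3c2. Hist1h2bq and Hist1h2br had identical promoters too and 0% unique windows, and their peaks scored 80 and 77 in Q7SST, 83 and 84 in Q111SST, 76 and 116 under cyproheptadine, 115 and 106 under loxapine, 85 and 74 under DKI and 88 and 87 under meclizine. Which of the 2 copies carried the mark cannot be told apart.

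All 49 members under 90% unique windows were marked in every list. Their median percentile was 63.5 in Q7SST, 68.0 in Q111SST, 70.9 under cyproheptadine, 69.5 under loxapine, 68.7 under DKI and 67.9 under meclizine. Of the 18 others, which include Hist1h1d and all 3 testis members, 16 were marked in 5 lists and 14 under DKI, with medians of 71.1, 70.7, 69.7, 73.2, 77.9 and 76.2. The part of repeated sequence in the members' lower ranks was not tested.

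Of 38 Q111SST peaks near members, 38 overlapped a peak in Q7SST and under cyproheptadine, loxapine and meclizine, and 37 under DKI. With an overlap of at least 50% of both peaks the counts were 34 in Q7SST, 32 under cyproheptadine, 34 under loxapine, 32 under DKI and 36 under meclizine. Over 12432 Q111SST peaks near any protein-coding gene, 93.1% to 98.3% overlapped a peak of another list and 84.0% to 92.5% did so by 50% of both. The percentile of a member ranged over the 6 lists by a median of 17.9 points over 63 members, against 14.5 points over 11455 genes.

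All 11 histone variant genes, several of which are expressed throughout the cell cycle, and all 16 genes of histone transcription and mRNA processing were marked in all 6 lists, as were 11455 of all 21911 genes (52.3%). The variant genes had median percentiles of 66.8 to 84.6 per list, and the processing genes of 78.9 to 85.9, above the member medians in each list but for the variant genes under DKI, at 66.8 against 70.4. Over all marked genes the medians were 75.8 to 83.0. Among them, H2afv, an H2A.Z gene, lay between percentiles 98.2 and 99.6, H1fx, a linker histone variant, between 22.0 and 65.9, and Cenpa, the centromeric H3 variant, between 78.2 and 90.2. Npat lay between 76.5 and 85.4, Slbp between 79.6 and 93.7, Casp8ap2, which encodes FLASH, between 93.6 and 97.6, Hinfp between 78.2 and 91.4 and Pou2f1 between 52.6 and 71.0. Lsm11, a U7 snRNP protein gene, was the lowest of the processing genes by median, at 54.1.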

How the data were processed

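Chromatin from 6 groups of cells (Q7SST, Q111SST and 4 compounds) was crosslinked, digested with MNase and immunoprecipitated with an antibody to H3K4me3, and libraries were read as 50-base single ends. The labels' processing notes name Trimmomatic 0.36, Bowtie2, SAMtools 1.3 and MACS2 and the build mm10, with no roles. The authors deposited 1 peak list per group with a whole-number score per peak. Score scale, input control, thresholds and the handling of multiply mapped reads are not given in the sources used here. Depth is unknown, so no interval for counting error was given.

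Groups were taken from the labels. Python 3.11.15 with pandas 2.3.3 and numpy 2.4.6 assigned peaks within 1 kb of any GENCODE vM21 basic start, symbols counted once. A percentile is the share of a list's peaks with a lower score plus 0.5 of ties. Blocks within a cluster were separated where neighbouring starts lay over 100 kb apart. A divergent pair had opposite starts within 1 kb. Promoters were RefSeq GRCm38.p6 sequences, and uniqueness was the share of 50-base windows found once in that genome on either strand. Peak assignment and percentiles were checked on planted peaks, and the sequence and shared-peak steps were not. No test was made, with 1 list per group.

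Named genes were all Hist2, Hist3 and Hist4 members, and of Hist1 those unmarked, gained or lost, the 5 highest and 5 lowest by median percentile, the H1 and testis members and those of the 5 widest Q111SST peaks, with fixed lists of 11 variant and 16 processing genes. The members and lists were chosen with earlier results of these data known. Alternatives covered the window, starts, score minimum, list size, merging and overlap.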

Additional observations from a re-analysis of the deposited data

How the results depend on the processing

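Of the 67 members, 50 to 63 were marked per list by peaks with scores at or above the pooled median of 47, and of the 62 with a RefSeq start 61 were marked from it (59 under DKI), an alternative chosen after the data were seen. The shares of all genes marked under these alternatives were not computed, so the counts have no background beside them. Of the alternatives computed, 130 kept their value within 1.5 times, or within the 95% interval of the median, and 31 moved. Some of the 130 had little or no room to move. The DKI list itself set the length of the lists of equal size, and with the 1 kb window only 2 members could be gained. The interval treats members that share a peak as separate. Requiring a peak over the start left 42 members marked and 29 distinct peaks under cyproheptadine. These were 64.6% of its marked members, against 78% of all its marked genes. Against Q111SST it then gave 2 members gained and 9 lost in Q7SST, 15 lost under cyproheptadine, 2 gained and 7 lost under loxapine, 3 gained and 6 lost under DKI, and 3 gained and 2 lost under meclizine, where 5.93%, 14.4%, 8.97%, 10.7% and 2.92% of all genes were lost and 8.4%, 0.892%, 2.22%, 1.77% and 4.82% gained in the order of these lists. Lists of equal size gave 1 member lost under loxapine, and by 10 points or more 24 members higher under cyproheptadine, 27 higher and 6 lower under DKI, 11 lower under loxapine and 7 higher under meclizine. The median change of members was then 8.53 points under cyproheptadine, 8.88 under DKI and -2.45 under loxapine. Ranked among marked promoters only, a different scale, the median percentile of members was 24.7 in Q7SST, 24.4 in Q111SST, 33.9 under cyproheptadine, 27.5 under loxapine, 40.3 under DKI and 26.7 under meclizine. Members with 90% or more unique windows had medians of 71.1 in Q7SST, 77.9 under DKI and 76.2 under meclizine. A peak over both starts was shared by 18 pairs in Q7SST and 13 under cyproheptadine. The causes of these moves were not tested. Depth and replicate spread are unknown, so a peak absent from a list is not shown to be absent from the cells. No paired analysis was possible because each group had 1 list and no test was made.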
